A study of Homo sapiens with 6 samples.

Results

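RNA levels are described for ATF7IP2, its paralog ATF7IP and 8 further genes of the machinery that silences chromatin through methylation of histone H3 at lysine 9 (H3K9), in LNCaP cells with and without overexpression of Gα13. The 10 genes, of 17297 in the table, are ATF7IP2, ATF7IP, SETDB1, TRIM28, MPHOSPH8, EHMT1, EHMT2, SUV39H1, CBX3 and CBX5, and each was found by its gene symbol. LNCaP is an established human prostate cancer cell line that depends on the androgen receptor. Both stable lines of the study were made from it, 1 with the empty retroviral vector (pBabe-vector, labelled as wild type) and 1 with wild-type GNA13 cDNA in the same vector (pBabe-GNA13), with puromycin as the selection agent for both. From each line 3 cultures were grown for 48 h in medium with serum and sequenced as total RNA. The sources used here do not say whether a line is a pool or 1 clone, and the replicates are cultures of 1 line, so p-values measure the spread between cultures and not between independently made lines.

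ATF7IP2 was chosen because its RNA rose from near 0 in pBabe-GNA13, and ATF7IP was singled out for its place on chromosome 12, where most genes were higher in that line. For both, the difference between the lines is therefore given as a description with no test. The other 8 genes were chosen by function, with earlier results of these data known.

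Methylation of H3K9 marks chromatin that is kept silent. SETDB1 is the methyltransferase that adds trimethylation at transposable elements and other targets, where it is brought by TRIM28, the corepressor that KRAB zinc finger proteins recruit to DNA. ATF7IP binds SETDB1, stabilizes it and keeps it in the nucleus. ATF7IP2 is a related protein that is best known from the testis, where it takes part in silencing during meiosis. MPHOSPH8 is the H3K9-binding subunit of the HUSH complex, which spreads silencing over integrated and repeated sequences. SUV39H1 methylates H3K9 in pericentromeric heterochromatin, and EHMT1 (GLP) and EHMT2 (G9a) act together as the main enzymes of dimethylation in euchromatin. CBX3 and CBX5 encode HP1γ and HP1α, which read the mark.

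The deposited values were read counts per gene, with 33002160 to 40628970 counts in a library. Counts were scaled by TMM, which adjusts library sizes for composition, and are given as CPM, the share of a library's counts on a fixed scale. In the columns, 1 library of each line carries the tag std. For pBabe-vector it is replicate 1. For pBabe-GNA13 its number could not be settled, and it is named here by the tag. GNA13 itself, the check of the labels, lay at 747 to 886 CPM in pBabe-GNA13 and at 65.4 to 76.7 CPM in pBabe-vector. Of the LNCaP markers, all 8 were detected, and KLK3, which encodes prostate-specific antigen, averaged 2765 CPM in pBabe-vector. Of 7 markers of other cell types, 4 were in the table, with a summed level of 17.5 to 26.2 CPM in pBabe-GNA13 and 12.6 to 23.9 CPM in pBabe-vector. COL1A1, a collagen gene of fibroblasts, made up most of these sums. With the library pairs as a block, a fit described further on, 2 of the 4 were called higher in pBabe-GNA13, KRT5 (log2 fold change 2.52, edgeR adjusted p = 7.2e-07) and COL3A1, another fibroblast collagen gene (1.26, edgeR adjusted p = 0.0413). Of the 8 LNCaP markers that fit called 3 higher and 0 lower, beside 9.32% higher and 10.4% lower among all genes. KRT5, a keratin of basal cells, had no read in replicate 2 of either line, 3.08 (std) and 3.72 CPM (replicate 3) in pBabe-GNA13, and 0.572 (replicate 1) and 0.592 CPM (replicate 3) in pBabe-vector. TP63, the regulator that defines basal cells, was at 0 to 0.145 CPM in pBabe-GNA13 and had no read in pBabe-vector. In bulk RNA, fewer cells expressing a gene and less RNA per cell cannot be told apart.

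ATF7IP2 went from a few reads to a low but clear level. It lies on the plus strand of chromosome 16 of GRCh38, from 10326434 to 10483638 (Gencode 44). The pBabe-vector libraries held 4 (replicate 1), 3 (replicate 2) and 1 (replicate 3) of its reads, which equals 0.0954, 0.0886 and 0.0312 CPM. The pBabe-GNA13 libraries held 97 (std library), 59 (replicate 2) and 55 (replicate 3) reads, which equals 2.60, 1.73 and 1.60 CPM.

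Each pBabe-GNA13 library thus stood well above each pBabe-vector library, and the highest pBabe-GNA13 library was 1.62 times the lowest. The group means were 1.98 ± 0.541 CPM and 0.0717 ± 0.0353 CPM (SD, n = 3 each). The pBabe-vector mean lies near the level of 3 reads, which is 0.0715 to 0.0935 CPM in these libraries. Pooled over each line, 211 reads against 8 gave a ratio of 26.9. Pooling leaves out the spread between cultures, and duplicates of 1 molecule could not be recognised. The fitted log2 fold change was 4.68, against a group at about the level of 3 reads. The replicate 2 libraries, which held no read of KRT5 or TP63, had ATF7IP2 at 1.73 CPM in pBabe-GNA13 and 0.0886 CPM in pBabe-vector. Within the annotated span of ATF7IP2 lie 3 unnamed genes, among them 2 long noncoding RNAs, on both strands, and the sources used here do not say whether counting used strand.

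**Figure D1:**
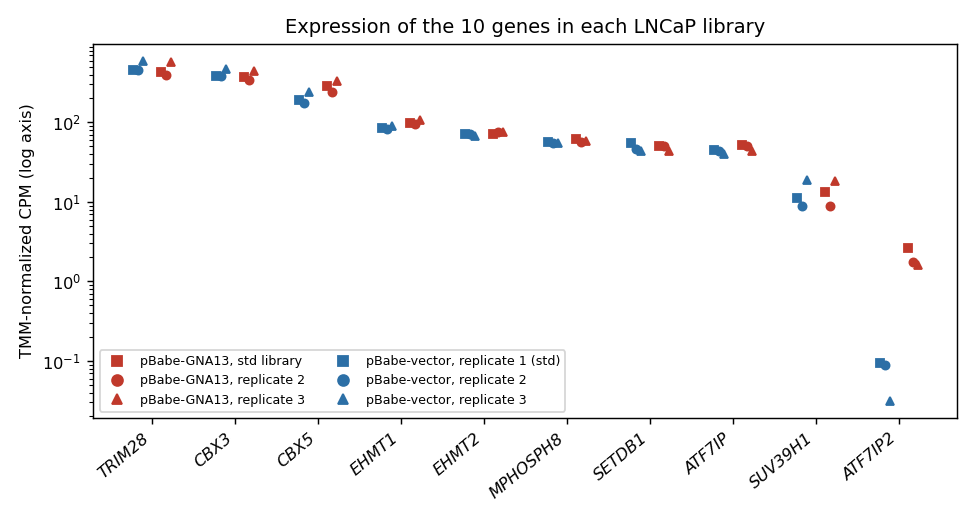
TMM-normalized CPM (log axis) of the 10 genes in each of the 6 libraries, with pBabe-vector in blue and pBabe-GNA13 in red, and 1 marker shape for each pair of libraries. ATF7IP2 is the lowest gene, at 0.0312 to 0.0954 CPM in pBabe-vector and 1.60 to 2.60 CPM in pBabe-GNA13, and in TRIM28, CBX3, CBX5 and SUV39H1 the replicate 3 libraries (triangles) are the highest of both lines.

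ATF7IP, the paralog that LNCaP cells express in both lines, differed by far less. It lies on the plus strand of chromosome 12, from 14365676 to 14502931. Its level was 52.3, 50.4 and 44.02 CPM in the pBabe-GNA13 libraries (std, replicate 2 and replicate 3) and 45.3, 44.1 and 40.2 CPM in pBabe-vector replicates 1, 2 and 3. The groups overlapped, because replicate 3 of pBabe-GNA13 lay below replicate 1 of pBabe-vector, while within each pair of libraries pBabe-GNA13 was the higher. The log2 fold change was 0.18, below the median of 0.30 over the 620 genes of chromosome 12 with a mean of at least 1 CPM, of which 93.7% were higher. Once the median of every chromosome was set to 0 in each library, ATF7IP was at −0.11.

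Per kilobase of annotated exon, the scale on which levels of different genes can be set side by side, ATF7IP exceeded ATF7IP2 in every library. In pBabe-vector ATF7IP2 made up 0.159% to 0.431% of the summed level of both genes, and in pBabe-GNA13 it made up 6.60% to 9.26%. Even in the pBabe-GNA13 libraries, ATF7IP remained 9.80 to 14.2 times as high as ATF7IP2. The length used is the union of all annotated exons, which can be longer than any 1 transcript.

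Of the 20 genes of the table nearest to ATF7IP2, none with a mean of at least 1 CPM had a log2 fold change above 0.27. These 20, 10 on each side, have starts spread over 6.72 Mb. They gave 0 calls in the edgeR test (2 at an unadjusted p under 0.05 and 1 call by DESeq2). Among the 19 with a mean of at least 1 CPM, 5 had a positive log2 fold change, and values ran from −0.65 to 0.27 with a median of −0.09, beside −0.04 for the 577 such genes of chromosome 16. GRIN2A, a glutamate receptor gene and the nearest gene upstream, averaged under 1 read a library in both lines. C16orf72, the next one upstream, had a log2 fold change of 0.09 (95.9 ± 18.7 against 90.3 ± 16.8 CPM, SD, n = 3 each). On the other side, EMP2, a tetraspan membrane protein gene 202 kb away by start, was at −0.06 (50.9 ± 8.11 against 53.0 ± 2.74 CPM, SD, n = 3 each), and NUBP1 at −0.06. With the block 4 of the 20 were called, beside 19.7% of all genes in that fit: SNN higher (0.27, edgeR adjusted p = 0.00184), and DEXI (−0.65, edgeR adjusted p = 0.000298), LITAF (−0.23, edgeR adjusted p = 0.00243) and ALG1 (−0.21, edgeR adjusted p = 0.0169) lower.

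Around ATF7IP the values were mostly positive. Of its 20 neighbours on chromosome 12, 12 had a mean of at least 1 CPM, and all 12 had a positive log2 fold change, from 0.05 to 0.36 with a median of 0.25. None was called without the block by edgeR (3 at an unadjusted p under 0.05) or by DESeq2, and 8 of the 20 were called higher with it, beside 9.32% of all genes and 440 of the 620 genes of chromosome 12 with a mean of at least 1 CPM. The nearest neighbours, GRIN2B on 1 side and PLBD1 on the other, were close to 0 reads in both lines. EMP1, the next one upstream, averaged 0.851 and 0.405 CPM (log2 fold change 1.07, edgeR adjusted p = 0.545 unblocked and 0.0379 blocked), and HIST4H4, a histone H4 gene downstream, was at 0.16 (edgeR adjusted p = 0.984).

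The lines were compared over all 17297 genes with the quasi-likelihood test of edgeR and Benjamini-Hochberg adjustment, and 24 genes (0.139%) were called. DESeq2 called 1.77% of the genes for which it gave an adjusted p, and among the 10 again ATF7IP2 alone. Among the 10 genes edgeR called 1, ATF7IP2, on the contrast that chose it, so nothing is read from that count. None of the other 9 was called without the block. Libraries of the same pair (those tagged std, those numbered 2 and those numbered 3) deviated together from their group means, and a second fit took the pairs as a block. With the block 3407 genes (19.7%) were called, and 4 of the 10, all higher. Of these, ATF7IP2 and ATF7IP were chosen on this contrast and nothing is read from their part of the count. The other 2 were EHMT1 and CBX5, among the 8 genes chosen by function. The median log2 fold change of the 10 genes was 0.09, beside −0.0013 for all genes of the table, with 7 above 0 and 3 below. Of all 17297 genes, 8411 were above 0 and 8707 below. The values of the 10 take in ATF7IP2 and ATF7IP, so nothing is read from this comparison.

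CBX5 had the largest difference among the 8 genes chosen by function. It lies on the minus strand of chromosome 12, from 54230942 to 54280133. Its level was 291, 241 and 335 CPM in the pBabe-GNA13 libraries (std, replicate 2 and replicate 3) and 191, 174 and 244 CPM in pBabe-vector replicates 1, 2 and 3. The groups overlapped only through replicate 2 of pBabe-GNA13, which lay just under replicate 3 of pBabe-vector, and within each pair pBabe-GNA13 was higher by 0.46 to 0.60 on the log2 CPM scale. The log2 fold change was 0.51 (standard error 0.17, 95% interval 0.12 to 0.90), which was not called over all genes (edgeR adjusted p = 0.416). CBX5 was called higher with the block (edgeR adjusted p = 3.61e-08). It was also called in the blocked fit after such centring, at 0.22 on the log2 scale (adjusted p = 0.00304 by edgeR). That fit called 14.1% of all genes, and 2 of the 10, CBX5 and ATF7IP2. CBX5 overlaps other annotated genes, most widely SCAT2, a long noncoding RNA on the opposite strand (16449 bases). The annotation also names 1 CBX5 pseudogene.

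For the other HP1 genes no difference was called. CBX3, on chromosome 7 from 26201162 to 26213607, stood at 370, 344 and 439 CPM in pBabe-GNA13 (std, replicate 2 and replicate 3) and at 379, 379 and 471 CPM in pBabe-vector replicates 1, 2 and 3. Its log2 fold change was −0.09 (95% interval −0.42 to 0.23, edgeR adjusted p = 0.967), and the annotation names 10 CBX3 pseudogenes with which its reads can be shared. CBX1, which encodes HP1β, averaged 160.0 ± 19.5 and 170.4 ± 15.97 CPM (SD, n = 3 each), with a log2 difference of −0.09 (edgeR adjusted p = 0.960).

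CBX5 and HNRNPA1, which encodes an abundant splicing factor, point away from each other on chromosome 12. The stretch between their annotated spans is shown because it separates CBX5, called higher in the blocked fits alone, from a neighbour not called before chromosomes were centred. It is chr12:54280134-54280192 of GRCh38.p14 (RefSeq), 59 bases long, printed on the minus strand in the direction of CBX5 transcription, with its 6 CpG dinucleotides in capitals.
CBX5 to HNRNPA1 interval: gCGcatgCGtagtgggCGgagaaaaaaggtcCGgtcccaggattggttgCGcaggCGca
HNRNPA1 was at 1949, 1621 and 1872 CPM in pBabe-GNA13 (std, replicate 2 and replicate 3) and at 1791, 1619 and 1647 CPM in pBabe-vector replicates 1, 2 and 3. Its log2 fold change was 0.11 (95% interval −0.18 to 0.39, edgeR adjusted p = 0.932 unblocked and 0.158 blocked). Relative to its chromosome it was at −0.19 in the blocked fit, where it was called lower (edgeR adjusted p = 0.00344). HNRNPA1 was picked for its position after values were seen, and the annotation names 74 pseudogenes of it. CBX3 and HNRNPA2B1 also point away from each other, but their annotated spans overlap by 368 bases on opposite strands. HNRNPA2B1 was at −0.05 on the log2 scale (edgeR adjusted p = 1.00). Of the 20 genes nearest to CBX5, 12 had a mean of at least 1 CPM, and 10 of these had a positive log2 fold change. Values of the 12 ran from −0.11 to 1.03 with a median of 0.15. The highest was HOXC12, above the 0.51 of CBX5 (edgeR adjusted p = 0.686 unblocked, 3.96e-07 blocked and 8.42e-05 blocked with chromosomes centred), and ZNF385A was at 0.50. With the block 4 of the 20 were called higher, beside 9.32% of all genes and 440 of the 620 genes of chromosome 12 with a mean of at least 1 CPM. Promoter sequences from RefSeq were held for 8 of the 10 genes, all apart from ATF7IP2 and TRIM28.

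EHMT1 was higher in pBabe-GNA13 by a smaller amount. It lies on chromosome 9, from 137618992 to 137870016, and stood at 98.5, 95.6 and 107 CPM in pBabe-GNA13 (std, replicate 2 and replicate 3) and at 85.5, 82.4 and 90.1 CPM in pBabe-vector replicates 1, 2 and 3. The groups did not overlap. The log2 fold change was 0.22 (standard error 0.09, 95% interval 0.01 to 0.44), not called without the block (edgeR adjusted p = 0.563) and called with it (edgeR adjusted p = 0.00239). Genes of chromosome 9 had a median of 0.12, with 77.7% of 498 above 0, and relative to its chromosome EHMT1 was at 0.10 in the blocked fit, where it was not called (edgeR adjusted p = 0.215). EHMT1 overlaps other annotated genes, most widely an unnamed long noncoding RNA on the same strand (92027 bases). A transcribed pseudogene on the opposite strand overlaps EHMT1 over 12697 bases.

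Its partner EHMT2, on chromosome 6 from 31879759 to 31897698, was at 72.4, 75.4 and 76.0 CPM in pBabe-GNA13 (std, replicate 2 and replicate 3) and at 71.2, 72.1 and 68.2 CPM in pBabe-vector replicates 1, 2 and 3. The groups did not overlap here either, although the gap between the lowest pBabe-GNA13 and the highest pBabe-vector library was narrow. The log2 fold change was 0.08 (95% interval −0.11 to 0.27, edgeR adjusted p = 0.911 unblocked and 0.316 blocked). An antisense RNA, EHMT2-AS1, overlaps EHMT2.

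SETDB1, the enzyme that ATF7IP binds, had close mean levels in both lines. It lies on chromosome 1, from 150926263 to 150964744, with 51.0, 50.6 and 43.1 CPM in pBabe-GNA13 (std, replicate 2 and replicate 3) and 54.8, 46.8 and 43.3 CPM in pBabe-vector replicates 1, 2 and 3. The group means were 48.2 ± 4.46 and 48.3 ± 5.92 CPM (SD, n = 3 each), and the 95% interval of the log2 fold change ran from −0.29 to 0.28 (edgeR adjusted p = 1.00), or from −0.12 to 0.12 with the block. The end of SETDB1 overlaps CERS2 on the opposite strand.

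TRIM28, on chromosome 19 from 58544064 to 58550722, had 427, 398 and 567 CPM in pBabe-GNA13 (std, replicate 2 and replicate 3) and 459, 449 and 592 CPM in pBabe-vector replicates 1, 2 and 3. It was lower in pBabe-GNA13 in each of the 3 pairs. The log2 fold change of −0.11 (95% interval −0.51 to 0.29) was not called (edgeR adjusted p = 0.972 unblocked and 0.114 blocked). MPHOSPH8, on chromosome 13 from 19633659 to 19673441, was at 61.3, 57.4 and 58.9 CPM in pBabe-GNA13 (std, replicate 2 and replicate 3) and 57.1, 54.5 and 55.3 CPM in pBabe-vector replicates 1, 2 and 3. Its groups did not overlap, by a margin of less than 1 CPM, and its log2 fold change of 0.09 (95% interval −0.10 to 0.28) was not called (edgeR adjusted p = 0.910 unblocked and 0.260 blocked).

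SUV39H1 varied more between cultures than any other of the 8 genes, and alike in both lines. It lies on the X chromosome, from 48695554 to 48709016. The pBabe-GNA13 libraries were at 13.4 (std), 8.81 (replicate 2) and 18.5 CPM (replicate 3), and pBabe-vector replicates 1, 2 and 3 at 11.3, 8.80 and 18.9 CPM. The highest library was 2.09 times the lowest in pBabe-GNA13 and 2.14 times in pBabe-vector. Between the lines the log2 fold change was 0.06 with a 95% interval of −0.74 to 0.86 (edgeR adjusted p = 1.00), which narrowed to −0.12 to 0.26 with the block (edgeR adjusted p = 0.662).

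Besides ATF7IP2, whose choice fixed it, groups that did not overlap were found for 3 of the 8 genes chosen by function, EHMT1, EHMT2 and MPHOSPH8, all higher in pBabe-GNA13. Of all genes in the table, 7.30% had groups that did not overlap and were higher, and 6.79% were lower (14.1% in either direction). Exact permutation tests of 3 against 3 libraries cannot give a two-sided p below 0.10.

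**Figure D2:**
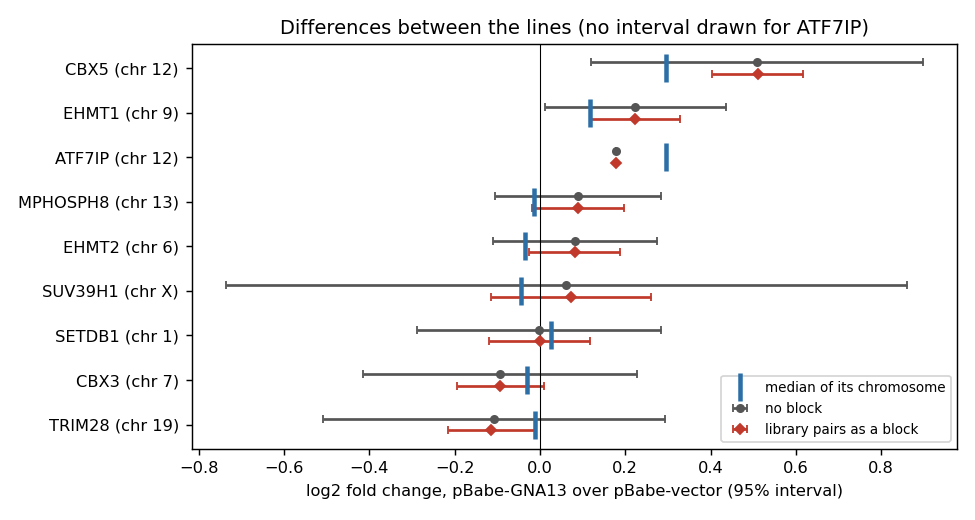
Log2 fold change of pBabe-GNA13 over pBabe-vector for the 9 genes other than ATF7IP2, from the edgeR fit without a block (grey circles) and with the library pairs as a block (red diamonds), with 95% intervals, which are left out for ATF7IP. Blue bars mark the median of each gene's chromosome, and CBX5, at 0.51, lies above the 0.30 of chromosome 12 while ATF7IP, at 0.18, lies below it.

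Per kilobase of annotated exon, the order of levels in pBabe-vector was TRIM28 at 116 ± 18.4 CPM per kb, CBX3 at 84.7 ± 10.99, CBX5 at 13.5 ± 2.40, MPHOSPH8 at 11.3 ± 0.280, EHMT2 at 9.66 ± 0.276, SETDB1 at 6.55 ± 0.802, SUV39H1 at 4.02 ± 1.62, EHMT1 at 3.88 ± 0.174, ATF7IP at 3.29 ± 0.203 and ATF7IP2 at 0.0112 ± 0.00552 (SD, n = 3 each). Neighbours in this order did not overlap between libraries, apart from CBX5 with MPHOSPH8 and SUV39H1 with EHMT1. SUV39H1, at 2.72 to 5.83 CPM per kb, also spanned ATF7IP, at 3.06 to 3.45. The order depends on the union of annotated exons, which was 22188 bases for EHMT1, 7375 for SETDB1 and 3233 for SUV39H1. Without division by length, EHMT1 lay above both in pBabe-vector, at 82.4 to 90.1 CPM against 43.3 to 54.8 and 8.80 to 18.9 CPM.

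The genes whose log2 CPM followed that of ATF7IP2 most closely over the 6 libraries, among 14058 others with a mean of at least 1 CPM, were RNF145 (Pearson's r = 0.996), LIMA1 (r = 0.994), NLGN4X (r = 0.994), C9orf64 (r = 0.993) and WASHC4 (r = 0.991). These values describe 6 libraries that fall into the 2 lines and share depth and culture, so they carry no p. None of the 5 approached the size of the ATF7IP2 difference: NLGN4X, a neuronal adhesion gene, averaged 21.7 against 9.30 CPM, and RNF145, a ubiquitin ligase gene, 74.5 against 51.7 CPM. Although ATF7IP2 lies on chromosome 16, LIMA1 and WASHC4 lie on chromosome 12. Their log2 fold changes were 0.36 and 0.51, and 0.07 and 0.22 with each chromosome centred. Closest to ATF7IP were C12orf72 (r = 0.993), HEBP2 (r = 0.989), EFS (r = 0.988), BAZ2A (r = 0.986) and ZNF737 (r = 0.985), of which C12orf72 and BAZ2A also lie on chromosome 12.

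A wider list of 46 genes of H3K9 and DNA methylation, the 10 genes included, was grouped by role, and all 46 were in the table. Without the block ATF7IP2 alone was called by edgeR, and 6 of the 46 had an unadjusted p under 0.05, beside 8.46% of all genes. The blocked fit called 12 (26.1%) higher and 2 (4.35%) lower, beside 9.32% higher and 10.4% lower among all genes. These counts take in ATF7IP2 and ATF7IP, which were chosen on this contrast. Without the 10 genes the counts were 8 higher and 2 lower of 36, and without chromosome 12 and ATF7IP2 they were 6 higher and 2 lower of 40. Those 6 lie on chromosomes 2 (3 genes), 9 (2 genes) and X (1 gene), and the 2 lower ones on chromosomes 20 and 22. Of genes with a mean of at least 1 CPM, 70.8% were higher on chromosome 2, 77.7% on 9 and 39.1% on X. On chromosomes 20 and 22 the shares were 19.5% and 19.3%. Of the 12, 5 lie on chromosome 12, which holds 5 of the listed genes: ATF7IP, ATF7, PPHLN1, CBX5 and CHD4. With each chromosome also centred, 7 of the 46 were called higher and none lower by edgeR, beside 6.58% and 7.56% of all genes, and on chromosome 12 CBX5 alone was still called. These 7 take in ATF7IP2, and without the 10 genes the centred counts were 5 higher and 0 lower of 36.

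By role, the other methyltransferases SETDB2 and SUV39H2 were both at −0.09 (edgeR adjusted p = 0.910 and 0.994). Among cofactors, ATF7, the transcription factor that gave ATF7IP its name, was at 22.1 ± 1.03 against 17.4 ± 0.845 CPM (SD, n = 3 each), with a log2 difference of 0.34 (edgeR adjusted p = 0.411 unblocked and 0.00205 blocked). Relative to chromosome 12 it was at 0.05 and not called (edgeR adjusted p = 0.743). In the HUSH complex and its effectors, PPHLN1 (periphilin) was called higher with the block at 0.23 (edgeR adjusted p = 0.00432), as was ZNF638 at 0.20 (edgeR adjusted p = 0.0122), and MORC2, an ATPase that compacts chromatin, was called lower at −0.17 (edgeR adjusted p = 0.0229). None of these 3 was called relative to its chromosome in the blocked fit (lowest edgeR adjusted p = 0.166, for ZNF638).

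Demethylases of H3K9, which oppose the writers, had 3 of 11 called higher with the block and none lower (edgeR), beside 9.32% and 10.4% of all genes: KDM3A at 0.34 (adjusted p = 0.00457), PHF2 at 0.31 (adjusted p = 9.54e-05) and PHF8 at 0.15 (adjusted p = 0.0389). All 3 were still called relative to their chromosomes (edgeR adjusted p = 0.0475, 0.0184 and 0.0109), where 6.58% of all genes were called higher. None of the 11 was called without the block by edgeR (1 at an unadjusted p under 0.05) or by DESeq2. KDM3A was at 28.9, 51.6 and 25.3 CPM in pBabe-GNA13 and at 27.5, 31.2 and 22.0 CPM in pBabe-vector (std or replicate 1, then replicates 2 and 3), so its difference lay mostly in replicate 2.

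Of the 3 DNA methyltransferases, 1 was called higher and 1 lower with the block and none without it (1 at an unadjusted p under 0.05 by edgeR, none called by DESeq2). With the block, DNMT3A was called higher at 0.38 (edgeR adjusted p = 9.04e-05) and DNMT3B lower at −0.43 (edgeR adjusted p = 0.00106), with adjusted p = 0.915 and 0.414 in the edgeR fit without it. DNMT3A averaged 37.2 ± 14.0 and 28.9 ± 12.2 CPM, and DNMT3B 11.5 ± 0.657 and 15.5 ± 2.05 CPM (SD, n = 3 each, pBabe-GNA13 first). Relative to its chromosome, DNMT3A was at 0.30 and called in the blocked fit (edgeR adjusted p = 0.00201). Relative to chromosome 20, whose genes were lower as a whole with a median of −0.21, DNMT3B was at −0.23 and not called (edgeR adjusted p = 0.0997). DNMT1, which copies DNA methylation after replication, was at 0.12 (edgeR adjusted p = 0.996 unblocked and 0.150 blocked).

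**Figure D3:**
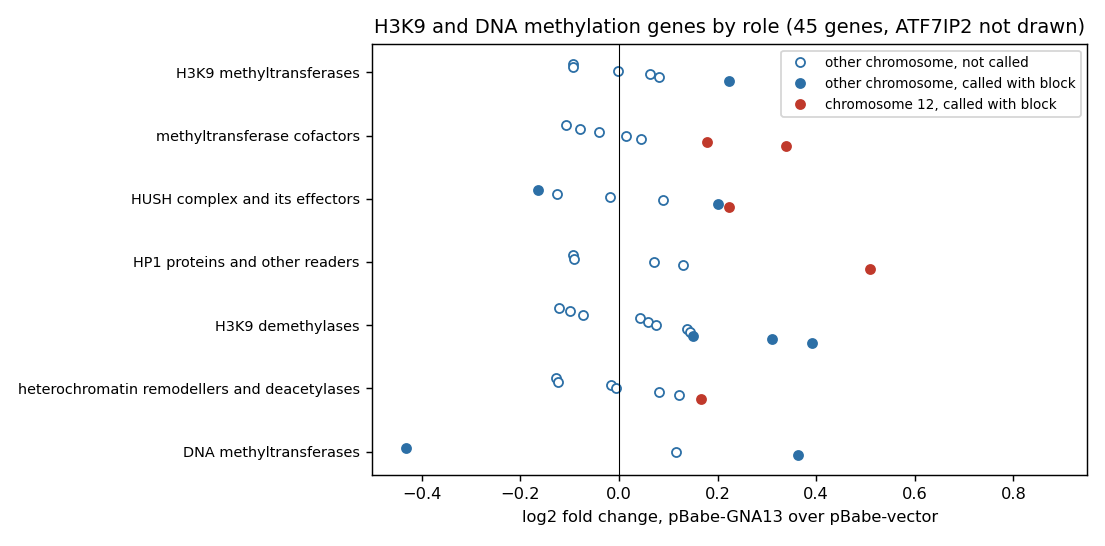
Log2 fold change of pBabe-GNA13 over pBabe-vector (edgeR fit without a block) for the 46 listed genes other than ATF7IP2, in rows by role, with chromosome 12 in red and filled points for genes called with the library pairs as a block. The 5 genes of chromosome 12 lie between 0.17 and 0.51 and are all filled, and DNMT3B, at −0.43, is the lowest.

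Genes that H3K9 and DNA methylation are known to keep silent in body cells were taken as a list of 34 germline genes, of which 18 were in the table and 13 had a mean of at least 1 CPM. MAGEA4, a cancer-testis antigen gene on the X chromosome, was called without the block, and it fell, with 88.3 ± 10.1 CPM in pBabe-GNA13 and 196 ± 10.9 CPM in pBabe-vector (SD, n = 3 each; log2 fold change −1.15, edgeR adjusted p = 0.0194). In the blocked fit 1 (5.56% of the 18) was called higher and 3 (16.7%) lower, beside 9.32% and 10.4% of all genes. These were CTAG2 (0.590 against 0.112 CPM, edgeR adjusted p = 0.00319), MAGEA4, MAGEA10 (log2 fold change −0.38, edgeR adjusted p = 9.26e-06) and BRDT (−0.79, edgeR adjusted p = 0.00467).

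Numbered zinc finger genes (symbols of ZNF and a number) are mostly of the KRAB kind, whose proteins recruit TRIM28 and whose own clusters carry H3K9 trimethylation. Of 487 in the table, 0 were called without the block by edgeR, and 31 had an unadjusted p under 0.05, beside 8.46% of all genes. DESeq2 called 4, beside 1.77% of the genes for which it gave an adjusted p. The blocked fit called 58 (11.9%) higher and 13 (2.67%) lower, beside 9.32% and 10.4% of all genes. With each chromosome also centred, 41 of the 487 were called higher and 11 lower, beside 6.58% and 7.56% of all genes. The median log2 fold change of the 487 was 0.05. On chromosome 19, which holds 237 of them, 22 were higher and 2 lower in the blocked fit, beside 65 higher and 97 lower among all 1055 genes placed there.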

How the data were processed

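Total RNA of 3 cultures per LNCaP line was sequenced as paired reads of 150 bases. Per the study's methods, the authors checked reads with FastQC 0.11.7, aligned them with STAR (version not given in the sources used here) and counted them per gene of Gencode 38 with featureCounts. The deposited table holds whole-number read counts, although its name says CPM. The normalization and log2 CPM that the authors describe had not been applied to the deposited counts.

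From these counts, edgeR 4.0.16 (R 4.3.3) was run with TMM factors, glmQLFit and glmQLFTest, no filter on low counts and the group as the only term. Genes with a Benjamini-Hochberg adjusted p under 0.05 over all 17297 genes were called. CPM were computed with TMM-scaled library sizes. Log2 CPM used a prior count of 2. Scripts were tested on simulated data. Of the symbols, 14400 were placed on GRCh38 through Gencode 44, of which 694 by an older symbol, and 2897 were not placed.

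Replicate numbers and the std tag in the column names gave the library pairs. Over 12778 genes, deviations from the group means correlated at 0.659, 0.807 and 0.888 within the 3 pairs and at −0.736 to 0.125 otherwise, so the pairs were treated as pairs. Deviations from a group mean cancel out within a line, so the values outside the pairs are not independent of those within. The blocked fit is given beside a result where it changes a call. In a further fit each chromosome was centred on its median in each library. Alternatives were DESeq2 1.42.0, RLE factors, filterByExpr, limma-trend (limma 3.58.1) and leaving out each library or pair.

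The 10 genes and all lists were chosen with earlier results of these data known. Named genes are the 10 genes, the nearest neighbours of ATF7IP2 and ATF7IP and those called among them, the 5 genes most like each, and listed genes called in either fit, with HNRNPA1, HNRNPA2B1, KDM3A's libraries and the neighbours of CBX5 added after values were seen. Floors of 3 reads cover counting error only.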

Additional observations from a re-analysis of the deposited data

How the results depend on the processing

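ATF7IP2 was chosen on this contrast, so its values are a description. Its log2 fold change was 4.37 to 4.95 when 1 library was left out (4.45 without the std library of pBabe-GNA13, 4.95 without replicate 1 and 4.82 without replicate 2 of pBabe-vector), 4.001 by limma-trend, and 4.53 to 4.94 with the replicate block and 1 pair left out.

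The count over all genes, 24, became 280 by DESeq2, 5 by limma-trend, 3407 with the replicate block, 2446 with the replicate block and each chromosome centred, 2 to 15 without 1 library, and 2250, 2550 and 3266 with the replicate block and the replicate 3, replicate 2 or std pair left out. The 24 genes were all among those called by DESeq2 and among the 3407 called with the replicate block. Limma-trend called 3 of the 24. Fits without 1 library called from 2 of them (std library of pBabe-GNA13 left out) to 13 (replicate 3 of pBabe-vector left out). Among the 10 genes, the count became 0 by limma-trend, 4 with the replicate block, 2 with centring added, 0 to 1 without 1 library and 3 in each blocked fit without 1 pair. Among the fits without 1 library, the count of 0 arose without the std library of pBabe-GNA13 or without replicate 1 or 2 of pBabe-vector, and the gene that left it was ATF7IP2. In the wider list of 46 it became 0, 14, 7 and 0 to 1 in the same order, and 9, 11 and 13 in the blocked fits without the replicate 3, replicate 2 or std pair. For the neighbours of ATF7IP2 it became 1 by DESeq2, 4 with the replicate block, 3 with centring added and 3 to 4 in the blocked fits without 1 pair.

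ATF7IP, also a description, was at 0.18 with the replicate block, at −0.11 with chromosomes centred, with or without the block, and at 0.17 to 0.21 in the blocked fits without 1 pair. EHMT1 was past the threshold with the replicate block at 0.22, and at 0.22 to 0.24 without 1 pair. CBX5 was past it with the replicate block at 0.51, with centring added at 0.22, and at 0.47, 0.53 and 0.55 without the std, replicate 2 or replicate 3 pair.

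Genes near 0 changed sign without being called. SETDB1 was at 0.010 with filterByExpr, 0.00096 by limma-trend, −0.075 to 0.099 without 1 library and −0.061, 0.012 and 0.058 in the blocked fits without the replicate 2, replicate 3 or std pair. SUV39H1 was at −0.22 to 0.43 without 1 library and −0.014 to 0.14 in the blocked fits without 1 pair. TRIM28 (0.030) and CBX3 (0.019) were above 0 only without replicate 3 of pBabe-vector, and lay between −0.27 and 0.030 and between −0.19 and 0.019 over the 6 fits. MPHOSPH8 and EHMT2 kept their direction and their side of the threshold in every alternative. The replicate block changed no other call among the 8 genes chosen by function. The cause of these changes was not tested. At the depth of these libraries 3 reads equal 0.0715 to 0.0935 CPM, which limits what can be said of ATF7IP2 in pBabe-vector.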
